A study of Homo sapiens with 2 samples.

Results

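The glycolysis and pyruvate fate genes are 32 genes chosen by name from the 22474 genes listed for both libraries. They cover glucose uptake, every step from hexokinase to pyruvate kinase, the control of phosphofructokinase, lactate production and export, and the entry of pyruvate into mitochondria, with the transcription factor gene HIF1A. All 32 had a row in both gene tables. Of these, 31 reached 5 CPM in at least 1 library (counts scaled to a library total of 1000000), and SLC16A3 did not.

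Single cells of H9, an established human embryonic stem cell line, were profiled in 2 states with Smart-seq2, which copies and amplifies polyadenylated RNA of 1 cell along its full length and marks no molecules. The first state (ffEPSC, 25 cells) was feeder-free extended pluripotent stem cells that had been converted from H9 cells, and the second was H9 embryonic stem cells (ESC, 16 cells). Each state was 1 deposited sample of 1 cell line, so cells were not replicates, no test between states was possible, and the levels describe these libraries. Neither the media nor the time of conversion is given in the labels. The study asked how gene expression differs between the states.

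Glycolysis splits glucose into pyruvate and yields a little ATP without oxygen. Pyruvate is then either reduced to lactate by lactate dehydrogenase and exported, or carried into mitochondria, where the pyruvate dehydrogenase complex turns it into acetyl-CoA. The kinases PDK1, PDK2 and PDK3 switch that complex off by phosphorylation. Human pluripotent cells of the primed kind are known for strong glycolysis and lactate output, and HIF1A is a known activator of many of these genes. Most steps can be served by several genes with different control, so the choice of gene at a step is as much a property of the pathway as its summed level.

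Levels are the summed counts of all cells of a state, scaled to the state's gene counts (CPM). Ratios are log2((ffEPSC + 1)/(ESC + 1)) of these levels. Intervals are 95% and exact, and leave out every error but that of counting, because amplification makes many reads from 1 molecule. Depth per cell was 12507469 to 17811209 gene counts in ffEPSC (374101290 in all) and 11714517 to 19965639 in ESC (265412149 in all). Of 10 pluripotency markers all 10 were measured in both states, all 5 markers of the naive state were at least 2-fold higher in ffEPSC, and 3 of 5 primed markers were at least 2-fold lower. Not all of these held within sets 1 and 3, which are numbers in the names of cells: the naive marker DPPA5 had a ratio of 1.28 pooled, -1.54 in set 1 and -1.42 in set 3, and the primed marker OTX2 one of -1.45 pooled, -0.27 in set 1 and -0.18 in set 3. Of 8 fibroblast or feeder markers, COL3A1, LUM and DCN had no row. The 5 others summed to between 0.137 and 88.8 CPM per cell in ffEPSC and between 75.4 and 172 CPM in ESC, and 3 of the 4 that were measured were at least 2-fold lower in ffEPSC. FABP7, the 1 measured of 3 neuroectoderm markers, stood at 1.03 CPM in ffEPSC and 62.6 CPM in ESC, and KRT7, the 1 measured of 4 trophoblast markers, at 1.63 CPM in ffEPSC and 6.93 CPM in ESC. Of 5 mesoderm and endoderm markers 0 were measured. The part of these markers in the results was not tested.

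Some cells stood apart in both libraries. The 4 ESC cells lowest in the pluripotency gene POU5F1 had 63.5 to 218 CPM of it, against 496 to 1310 CPM in the other 12 ESC cells. In ffEPSC, genes of chromosomes 5, 11, 14, 20 and 22 were raised together in most cells, with a mean log2 shift of 0.49 to 0.65 in 18 of 25 cells. Another 5 cells had little or no such shift, below 0.3 both over the 5 chromosomes and on chromosome 5. The names of the cells also hold a number, 1 to 4, called a set here, and no label says what it stands for. Sets 1 and 3 alone held both states, with 3 and 2 ffEPSC cells against 7 and 9 ESC cells, and both ffEPSC cells of set 3 were among the 5 with little or no shift. For many genes ratios without these cells, or within these sets, stand beside the pooled ratio.

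The promoters of the 4 genes past 2-fold are shown because 2 of these genes were higher and 2 lower in ffEPSC, and a short core bound by HIF1A can be read in each. Each line holds the 250 bases before the RefSeq start of the gene on GRCh38.p14, 5′ to 3′ along the gene, with capitals for the letters ACGTG or GCGTG on either strand (CACGT or CACGC where the match is on the other strand). The windows are chrX:19343677-19343926 on the plus strand for PDHA1, chr21:44299803-44300052 on the plus strand for PFKL, chr10:6144671-6144920 on the plus strand for PFKFB3 and chr17:28576896-28577145 on the minus strand for ALDOC.
PDHA1: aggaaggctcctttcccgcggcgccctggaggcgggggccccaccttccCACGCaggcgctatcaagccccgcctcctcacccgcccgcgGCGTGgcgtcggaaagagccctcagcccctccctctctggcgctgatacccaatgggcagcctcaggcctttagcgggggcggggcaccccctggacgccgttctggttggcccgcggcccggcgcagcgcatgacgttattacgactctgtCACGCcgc
PFKL: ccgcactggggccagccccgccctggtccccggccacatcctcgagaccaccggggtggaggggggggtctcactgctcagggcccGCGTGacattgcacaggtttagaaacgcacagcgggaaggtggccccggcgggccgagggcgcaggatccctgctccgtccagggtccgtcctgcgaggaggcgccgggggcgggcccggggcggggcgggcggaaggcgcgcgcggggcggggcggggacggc
PFKFB3: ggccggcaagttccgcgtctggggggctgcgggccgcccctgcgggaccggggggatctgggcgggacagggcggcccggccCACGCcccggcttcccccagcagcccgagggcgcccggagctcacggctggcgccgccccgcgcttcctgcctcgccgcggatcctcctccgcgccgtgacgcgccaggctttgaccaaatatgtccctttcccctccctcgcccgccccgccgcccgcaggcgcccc
ALDOC: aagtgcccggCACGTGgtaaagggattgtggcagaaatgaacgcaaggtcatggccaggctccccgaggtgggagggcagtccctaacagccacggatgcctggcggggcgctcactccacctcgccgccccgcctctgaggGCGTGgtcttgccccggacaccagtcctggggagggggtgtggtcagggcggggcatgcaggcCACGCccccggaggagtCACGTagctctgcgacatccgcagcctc
PDHA1 held 3 matches, PFKL and PFKFB3 1 each, and ALDOC 5, where the run CACGTG counts as 2 overlapping matches. Genes higher and genes lower in ffEPSC both carried the core. Of the 30 glycolysis and pyruvate genes with a promoter in the table, 19 (63.3%) held at least 1 match, against 11763 of all 27305 promoters (43.1%). SLC2A3 and SLC16A1 had no entry. A match describes letters in this window and not a bound site.

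The pathway as a whole took an almost equal share of the RNA in the 2 states. The 32 genes held 1.80% of gene counts in ffEPSC and 1.77% in ESC. Their sum per cell ran from 12616 CPM over a median of 18039 to 20670 CPM in ffEPSC, and from 10827 over 18720 to 20360 CPM in ESC, so the states overlapped over nearly the whole range. The low end in ESC was that of the 4 cells low in POU5F1, at 10827 to 14551 CPM. The other 12 ESC cells had 17330 to 20360 CPM. Of the 31 measured genes 15 had a ratio above 0 and 16 below 0. Their median ratio was -0.01, beside 0.04 over all 10825 genes at the same floor, whose 5th and 95th percentiles were -1.096 and 1.31. 2 genes were at least 2-fold higher in ffEPSC, PDHA1 and PFKL, where 8.30% of all genes were. 2 were at least 2-fold lower, PFKFB3 and ALDOC, where 5.84% of all genes were. Both counts lie near those shares. None of the 31 had every ffEPSC cell above or every ffEPSC cell below every ESC cell, a pattern found in 0.102% and 0.111% of all genes.

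**Figure D1:**
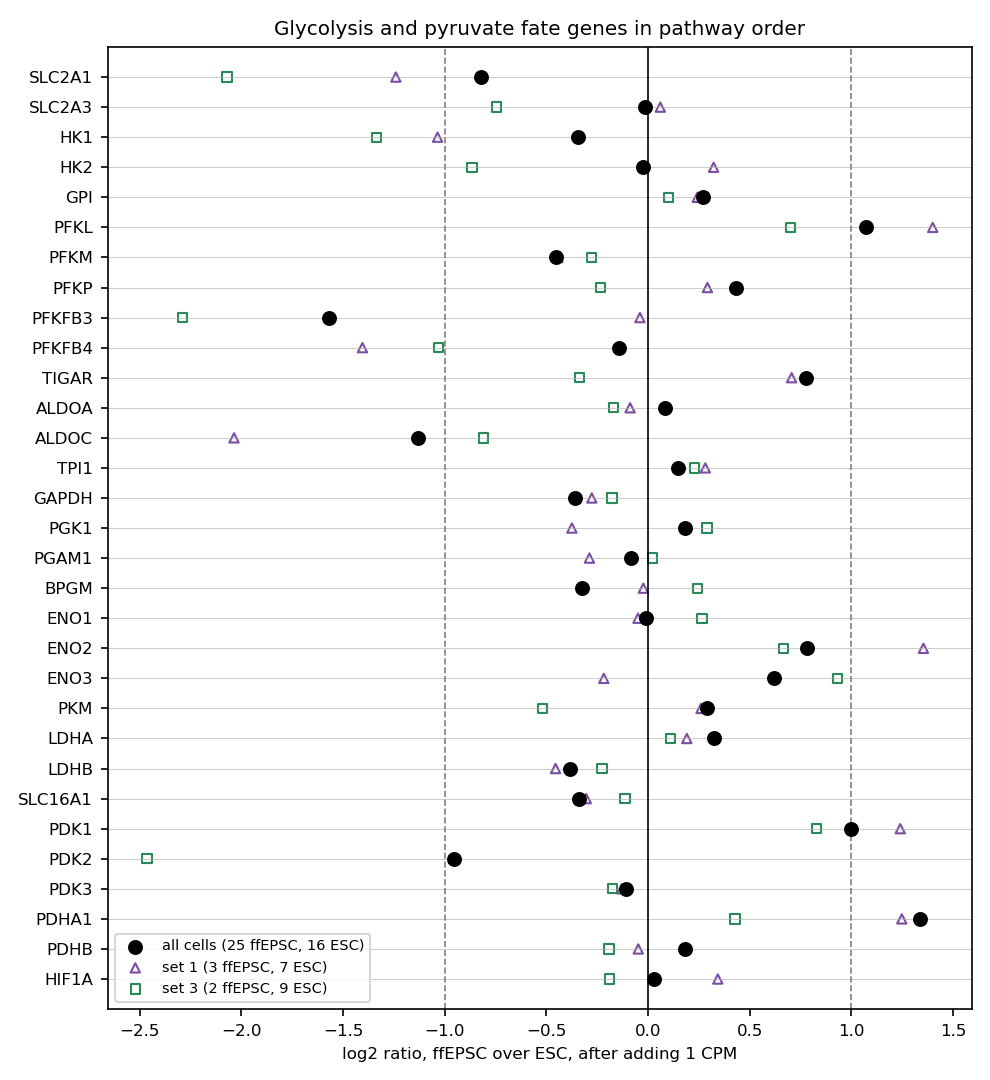
Log2 ratio of ffEPSC over ESC after adding 1 CPM for the 31 measured genes, in pathway order from top to bottom. Filled circles are all cells, triangles set 1 and squares set 3, and dashed lines mark 2-fold. PDHA1 and PFKL lie right of the line and PFKFB3 and ALDOC left of it, while SLC2A1 lies further left within both sets than in the pooled libraries.

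Of the 2 glucose carrier genes, SLC2A1 stood lower in the pooled ffEPSC cells, and both did within set 3. SLC2A1, which encodes the widely used transporter GLUT1 (chr1:42925375-42959176, minus strand, GENCODE 29), stood at 142 CPM in ffEPSC and 252 CPM in ESC. Its cells ran from 50.4 over a median of 120 to 304 CPM in ffEPSC, and from 5.61 over 269 to 460 CPM in ESC. 23 of 25 ffEPSC cells lay below the ESC median. The ratio was -0.82 (counting interval -0.84 to -0.81). It passed 2-fold at -1.24 within set 1, at -2.07 within set 3 and at -1.07 once the 4 ESC cells with little POU5F1 were left out, 3 of which held the lowest SLC2A1 levels of all cells in both libraries. SLC2A3, the high-affinity transporter GLUT3, stood at 304 CPM in ffEPSC and 307 CPM in ESC, with a ratio of -0.01, which was 0.06 within set 1, -0.74 within set 3 and -0.34 over the 5 ffEPSC cells of little or no shift. Its cells ran from 132 over 316 to 536 CPM in ffEPSC, and from 139 over 258 to 653 CPM in ESC. Reads of SLC2A3 can also match SLC2A14, a near-identical neighbour listed at 11.01 CPM in ffEPSC and 5.82 CPM in ESC.

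Hexokinase, which traps glucose in the cell, was read mostly from HK1 in both states. HK1 stood at 144 CPM in ffEPSC, with cells from 0.861 over 131 to 289 CPM, and at 183 CPM in ESC, with cells from 18.9 over 193 to 314 CPM. The ranges overlapped, and the ratio was -0.34. It reached -1.04 within set 1 and -1.34 within set 3, past 2-fold in both, where 1 of the 2 ffEPSC cells of set 3 held 0.861 CPM. HK2, the form known for high levels in tumours, stood at 31.6 CPM in ffEPSC and 32.2 CPM in ESC, with cells from 0.492 over 31.7 to 85.0 CPM in ffEPSC and from 1.19 over 32.7 to 76.3 CPM in ESC. Its ratio was -0.03, with 0.32 within set 1 and -0.87 within set 3, where the ffEPSC cell with 0.861 CPM of HK1 was also the one with 0.492 CPM of HK2. GPI, which turns glucose phosphate into fructose phosphate, stood at 444 CPM in ffEPSC and 368 CPM in ESC, a ratio of 0.27 that shrank to 0.06 without the 4 ESC cells low in POU5F1.

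Phosphofructokinase commits sugar to glycolysis, and its 3 genes did not share a direction. PFKL, the liver form (chr21:44300051-44327376, plus strand), stood at 166 CPM in ffEPSC, with cells from 50.3 over a median of 138 to 360 CPM. In ESC it stood at 78.6 CPM, with cells from 0 over 75.7 to 162 CPM. 9 of 25 ffEPSC cells lay above the highest ESC cell, and 23 lay above the ESC median. The ratio was 1.07 (counting interval 1.057 to 1.103), with 1.4 within set 1 and 0.70 within set 3. It was short of 2-fold, at 0.82 without the 4 ESC cells low in POU5F1, at 0.72 over the 5 ffEPSC cells of little or no shift and at 0.86 between the medians of cells. Leaving out each cell in turn gave 0.996 to 1.19.

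PFKM, the muscle form, was lower at 52.6 CPM in ffEPSC and 72.5 CPM in ESC, a ratio of -0.45. Its cells ran from 12.9 over 43.5 to 122 CPM in ffEPSC and from 12.8 over 67.7 to 125 CPM in ESC. PFKP, the platelet form, stood at 143 CPM in ffEPSC and 106 CPM in ESC, a ratio of 0.43. It was 0.29 within set 1, -0.23 within set 3, 0.20 against the 12 other ESC cells and 0.06 over the 5 ffEPSC cells of little or no shift. Its cells ran from 74.9 over 137 to 274 CPM in ffEPSC and from 0 over 108 to 204 CPM in ESC. Per kilobase of merged exons PFKP led in both states, with 53.4% of the step in ffEPSC and 53.9% in ESC. PFKL held 33.6% in ffEPSC and 21.7% in ESC, and PFKM 12.98% in ffEPSC and 24.4% in ESC. PFKL thus stood second in ffEPSC and PFKM second in ESC. With plain counts PFKL led in ffEPSC, at 45.9%, and PFKP in ESC, at 41.2%.

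PFKFB3, PFKFB4 and TIGAR, which tune phosphofructokinase through a fructose bisphosphate that activates it, were among the lowest of the 32 genes. PFKFB3, which makes this activator (chr10:6144934-6254644, plus strand), stood at 3.74 CPM in ffEPSC, with reads in 15 of 25 cells and cells from 0 over a median of 1.4 to 25.3 CPM. In ESC it stood at 13.1 CPM, with reads in 14 of 16 cells and cells from 0 over 9.14 to 45.2 CPM. 21 of 25 ffEPSC cells lay below the ESC median. The ratio was -1.57, and -1.89 to -1.71 was the counting interval without the added 1 CPM. Within set 1 the 3 ffEPSC cells showed no such difference, at 14.9 CPM in ffEPSC and 15.3 CPM in ESC (ratio -0.04), while within set 3 the ratio was -2.29. PFKFB4, a second enzyme of this kind, stood at 10.1 CPM in ffEPSC and 11.3 CPM in ESC (ratio -0.14). Single cells ranged from 0 over 4.15 to 41.0 CPM in ffEPSC, with reads in 15 of 25, and from 0 over 8.86 to 31.8 CPM in ESC, with reads in 11 of 16. It was past 2-fold lower within set 1 (-1.4) and within set 3 (-1.03). PFKFB2, a further gene of this family outside the 32, stood above both, at 30.7 CPM in ffEPSC and 19.1 CPM in ESC. TIGAR, which degrades the activator, stood at 7.47 CPM in ffEPSC and 3.94 CPM in ESC, a ratio of 0.78, which was 0.71 within set 1, -0.34 within set 3 and 0.05 over the 5 ffEPSC cells of little or no shift. Its cells ran from 0 over 6.11 to 24.7 CPM in ffEPSC and from 0 over 2.69 to 14.5 CPM in ESC. Exons of another annotated gene on the same strand cover 61.5% of the principal TIGAR transcript, and no source used here says how reads in shared exons were counted.

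Aldolase was read mainly as ALDOC, the form best known from brain, and this gene was lower in ffEPSC. ALDOC (chr17:28573115-28577264, minus strand) stood at 46.8 CPM in ffEPSC, with cells from 0.825 over a median of 47.6 to 92.8 CPM. In ESC it stood at 104 CPM, with cells from 26.8 over 93.6 to 198 CPM. All 25 ffEPSC cells lay below the ESC median, 6 of them below the lowest ESC cell, and 8 of 16 ESC cells lay above the highest ffEPSC cell. The ratio was -1.13 (counting interval -1.18 to -1.12), with -2.04 within set 1, where 1 of the 3 ffEPSC cells held 0.825 CPM, -0.81 within set 3 and -0.88 over the 5 ffEPSC cells of little or no shift. ALDOA, the form of most tissues, was listed at 16.9 CPM in ffEPSC and 15.9 CPM in ESC, a ratio of 0.08, with cells from 5.45 over 16.9 to 24.3 CPM in ffEPSC and from 5.03 over 15.6 to 21.6 CPM in ESC. Exons of another gene on the same strand cover 82.6% of the principal ALDOA transcript, and that gene was listed at 0.182 CPM in ffEPSC and 0.203 CPM in ESC. The part of this overlap in the low ALDOA level was not tested, so the share of ALDOC in the step (78.8% in ffEPSC, 89.8% in ESC) is uncertain.

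**Figure D2:**
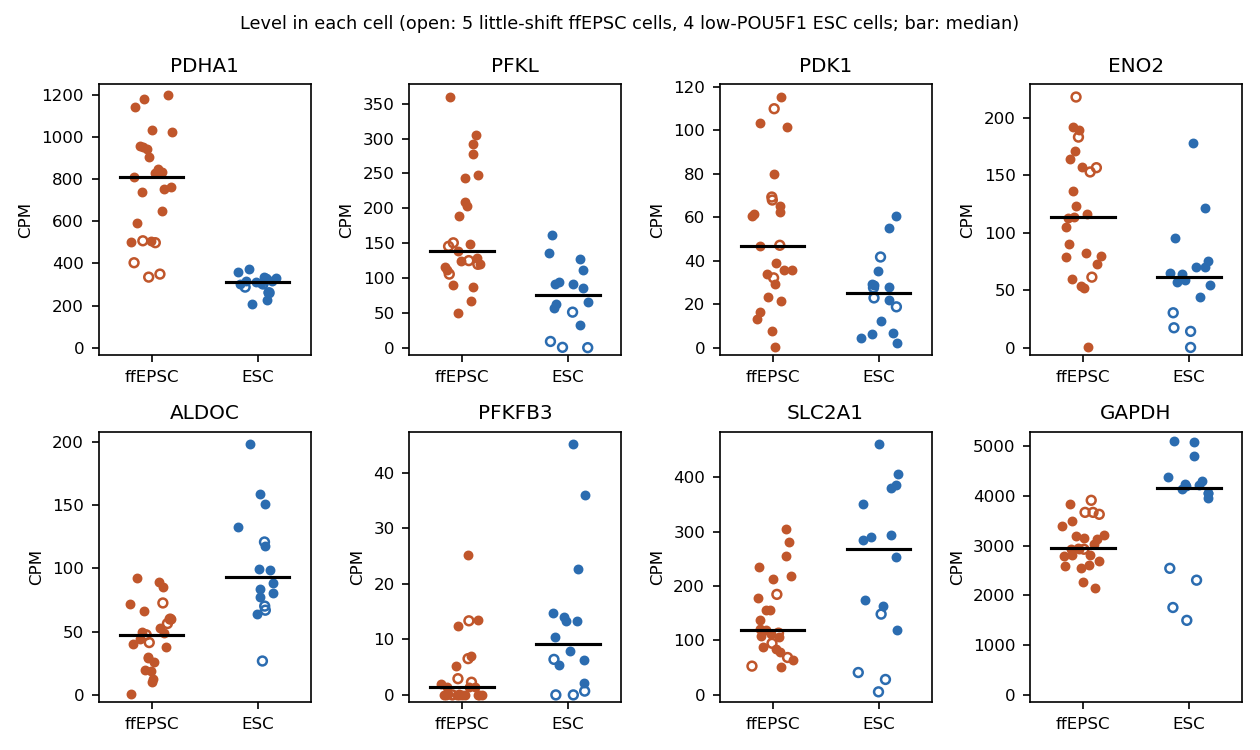
Level in CPM of 8 genes in each cell, ffEPSC left and ESC right, with the median as a bar. Open circles are the 5 ffEPSC cells with little or no chromosome-wide shift and the 4 ESC cells low in POU5F1. PDHA1 is the only one of the 8 with nearly all ffEPSC cells (23 of 25) above the highest ESC cell, and for GAPDH all ffEPSC cells lie between the 4 low cells and the other 12 ESC cells or overlap the 4.

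The later steps, from triose phosphate to pyruvate, differed by less than 2-fold in every gene. TPI1, which interconverts the triose phosphates, stood at 2846 CPM in ffEPSC and 2568 CPM in ESC (ratio 0.15), and 21 of 25 ffEPSC cells lay above the ESC median. PGK1, the first ATP-forming enzyme of the pathway, stood at 1173 CPM in ffEPSC and 1034 CPM in ESC (0.18, with -0.37 within set 1 and 0.29 within set 3). PGAM1, a mutase, stood at 682 CPM in ffEPSC and 723 CPM in ESC (-0.09). BPGM, which makes the bisphosphoglycerate known from red cells, stood at 37.8 CPM in ffEPSC and 47.5 CPM in ESC (-0.32, with 0.24 within set 3). PKM, pyruvate kinase, stood at 673 CPM in ffEPSC and 551 CPM in ESC (0.29, with 0.26 within set 1 and -0.52 within set 3). The PKM ratio was 0.11 without the 4 ESC cells low in POU5F1. Gene counts do not separate its 2 splice forms.

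GAPDH, the dehydrogenase often used as a reference gene, was the exception in how its cells were arranged. It stood at 3065 CPM in ffEPSC, with cells from 2146 over 2950 to 3913 CPM, and at 3932 CPM in ESC, with cells from 1498 over 4165 to 5111 CPM. The ratio was -0.36, and -0.52 against those 12 ESC cells that were not low in POU5F1. It was -0.28 within set 1, -0.18 within set 3 and -0.14 over the 5 ffEPSC cells of little or no shift. All 25 ffEPSC cells lay below all 12 other ESC cells, whose lowest had 3957 CPM. GAPDH was the one gene of the 31 with this arrangement, which 0.212% of all genes showed, and 0 of the 31 had the opposite one, shown by 0.166%. The 4 ESC cells low in POU5F1 had 1498 to 2544 CPM.

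Enolase, which makes phosphoenolpyruvate, was nearly all ENO1 in both states. ENO1 stood at 3366 CPM in ffEPSC and 3394 CPM in ESC, a ratio of -0.01 that was 0.27 within set 3, with cells from 2094 over 3402 to 4488 CPM in ffEPSC and from 1396 over 3668 to 4130 CPM in ESC. ENO2, the neuronal form, stood at 118 CPM in ffEPSC, with cells from 0.467 over 114 to 218 CPM, and at 68.0 CPM in ESC, with cells from 0.170 over 61.5 to 178 CPM. 20 of 25 ffEPSC cells lay above the ESC median. Its ratio was 0.78, with 1.35 within set 1, 0.67 within set 3 and 1.17 over the 5 ffEPSC cells of little or no shift. Without the 4 ESC cells low in POU5F1 the ENO2 ratio was 0.54. ENO3, the muscle form, stood at 18.5 CPM in ffEPSC and 11.7 CPM in ESC (0.62), with cells from 0 over 15.7 to 57.5 CPM in ffEPSC and from 0 over 14.8 to 24.4 CPM in ESC. Within set 1 its ratio was -0.22. ENO1 held 95.3% of the step per kilobase in ffEPSC and 97.2% in ESC, and ENO2 4.11% in ffEPSC and 2.40% in ESC.

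Per kilobase of merged exons, the order of levels among the 32 genes was much alike. In ffEPSC the highest were TPI1 (1054 CPM per kilobase), GAPDH (1028), ENO1 (638), LDHA (318) and PGAM1 (266). In ESC they were GAPDH (1319 CPM per kilobase), TPI1 (951), ENO1 (643), PGAM1 (282) and LDHA (254). TPI1 and GAPDH, and likewise LDHA and PGAM1, changed places between the states. Processed pseudogenes of GAPDH, TPI1, LDHA, LDHB, PGK1 and ENO1 can share reads with them, and no source used here says how such reads were assigned.

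At the pyruvate branch toward lactate, LDHA stood higher and LDHB lower in ffEPSC. LDHA, the form that favours making lactate, stood at 1976 CPM in ffEPSC, with cells from 975 over 2005 to 3149 CPM, and at 1576 CPM in ESC, with cells from 789 over 1621 to 2229 CPM. Its ratio was 0.33. LDHA lies on chromosome 11, one of the 5 raised chromosomes. The ratio was -0.07 over the 5 ffEPSC cells of little or no shift, and -0.01 after subtracting the median ratio of chromosome 11 (0.34 over 622 genes). LDHB, the form that favours making pyruvate, stood at 112 CPM in ffEPSC, with cells from 70.2 over 116 to 146 CPM, and at 146 CPM in ESC, with cells from 113 over 145 to 219 CPM. 12 of 25 ffEPSC cells lay below the lowest ESC cell, and 24 lay below the ESC median. Its ratio was -0.39, and -0.23 over the 5 cells with little or no shift. LDHA held 89.5% of the step per kilobase in ffEPSC and 83.8% in ESC. Exons of another gene on the same strand cover 64.6% of the principal LDHB transcript, so the share is uncertain.

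Lactate leaves cells through the monocarboxylate transporters, and SLC16A1 was the form read here. SLC16A1 (MCT1) stood at 786 CPM in ffEPSC and 995 CPM in ESC, a ratio of -0.34. Its cells ran from 505 over 782 to 1098 CPM in ffEPSC and from 474 over 1049 to 1470 CPM in ESC, and 23 of 25 ffEPSC cells lay below the ESC median. SLC16A3 (MCT4), the exporter of strongly glycolytic tissues, had 320 counts in ffEPSC (0.855 CPM), all from 5 of 25 cells with at most 8.98 CPM. It had 0 counts in ESC, where a count of 0 allows up to 0.0113 CPM over the library (3 counts). Taken against those 3 counts, the level was at least 75.7-fold higher in ffEPSC, in a gene that is under the 5 CPM floor in both states.

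**Figure D3:**
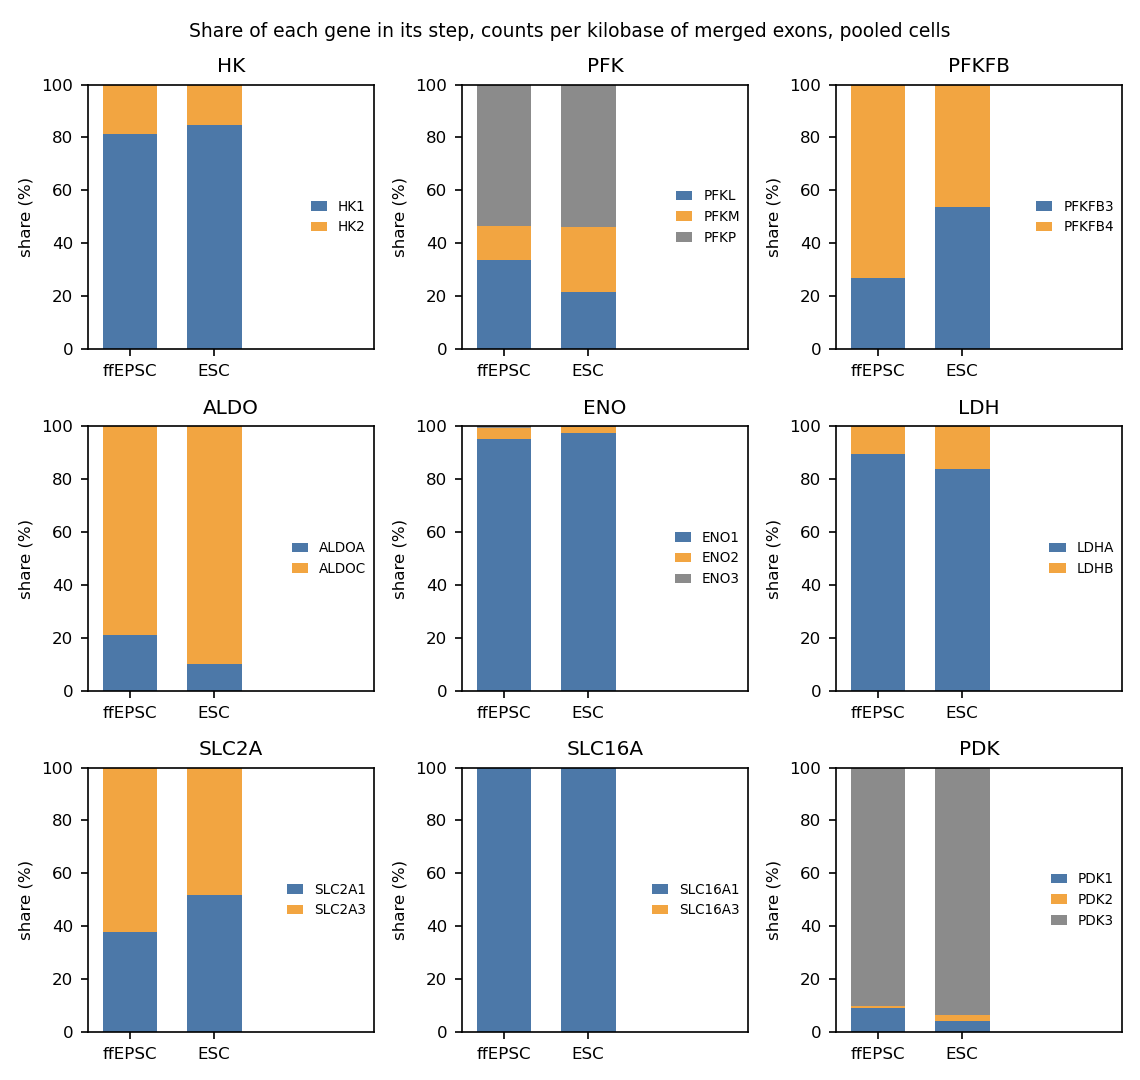
Share of each gene within its step in the pooled cells, in percent of counts per kilobase of merged exons, ffEPSC left and ESC right in each panel. PFKL takes 33.6% of PFK in ffEPSC and 21.7% in ESC, PFKFB3 26.9% of PFKFB in ffEPSC and 53.6% in ESC, and SLC2A1 37.9% of SLC2A in ffEPSC and 51.7% in ESC. The PFKFB panel holds PFKFB3 and PFKFB4 only.

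At the branch into mitochondria, the largest ratio of the pathway was that of PDHA1, which encodes the catalytic alpha subunit of pyruvate dehydrogenase. PDHA1 (chrX:19343893-19361705, plus strand) stood at 768 CPM in ffEPSC, with cells from 335 over a median of 809 to 1201 CPM. In ESC it stood at 303 CPM, with cells from 206 over 311 to 372 CPM. 23 of 25 ffEPSC cells lay above the highest ESC cell, and all 25 lay above the ESC median. The ratio was 1.34 (counting interval 1.33 to 1.35), and 1.33 against the 12 other ESC cells. The ratio was 1.25 within set 1 and 0.43 within set 3. The X chromosome as a whole had a median ratio of 0.06 over 437 genes. PGK1 and PDK3, which also lie on X, had ratios of 0.18 and -0.11. Exons of MAP3K15 on the opposite strand cover 28.9% of the principal PDHA1 transcript, and MAP3K15 was listed at 2.58 CPM in ffEPSC and 0.452 CPM in ESC.

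PDHB, which encodes the partner beta subunit, did not follow. It stood at 406 CPM in ffEPSC, with cells from 246 over 409 to 585 CPM, and at 358 CPM in ESC, with cells from 230 over 360 to 605 CPM. Its ratio was 0.18, with -0.05 within set 1 and -0.19 within set 3. Of the 9 other genes of the complex and of mitochondrial pyruvate entry, all 9 were measured, 0 were higher by 2-fold or more and 1 was lower by as much, and their median ratio was -0.02. DLAT, the acetyltransferase subunit, stood at 204 CPM in ffEPSC and 114 CPM in ESC (0.84), and PDHX, which docks the last enzyme of the complex, at 222 CPM in ffEPSC and 126 CPM in ESC (0.81). Both lie on chromosome 11, and over the 5 ffEPSC cells of little or no shift their ratios were 0.19 and 0.06. PDP2, a phosphatase that switches the complex back on, was the lower one, at 7.53 CPM in ffEPSC and 19.7 CPM in ESC (-1.28). Its ratio was 0.30 within set 3.

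Of the kinases that switch pyruvate dehydrogenase off, PDK1 was higher in ffEPSC. PDK1, a known HIF1A target, stood at 50.6 CPM in ffEPSC, with cells from 0.136 over 46.8 to 115 CPM, and at 24.8 CPM in ESC, with cells from 2.07 over 25.2 to 60.8 CPM. 10 of 25 ffEPSC cells lay above the highest ESC cell. Its ratio of 0.997 was the nearest to 2-fold from inside, with 1.24 within set 1, 0.83 within set 3 and 1.33 over the 5 ffEPSC cells of little or no shift. Leaving out each cell in turn gave 0.906 to 1.15. PDK2, a widely used form, was low and lower in ffEPSC, at 2.22 CPM in ffEPSC and 5.24 CPM in ESC, with cells from 0 over 0 to 12.5 CPM in ffEPSC and from 0 over 4.57 to 17.7 CPM in ESC. Its ratio was -0.96, with -1.16 against the 12 other ESC cells, -0.96 within set 1, -2.46 within set 3 and -2.61 over the 5 ffEPSC cells of little or no shift. Exons of SAMD14 on the opposite strand cover 61.4% of the principal PDK2 transcript.

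PDK3 stood at 167 CPM in ffEPSC and 180 CPM in ESC (-0.11), with cells from 88.8 over 159 to 276 CPM in ffEPSC and from 57.1 over 183 to 278 CPM in ESC. Per kilobase it led the step in every cell of both states, with 89.9% in ffEPSC and 93.3% in ESC, while PDK1 held 9.07% in ffEPSC and 4.29% in ESC. Just past the line of 2-fold stood PFKL (1.07) and ALDOC (-1.13), and just short of it PDK1 (0.997) and PDK2 (-0.96).

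Across the 9 steps with several genes, the leading gene per kilobase differed between the states in 2. Between PFKFB3 and PFKFB4, PFKFB4 led in ffEPSC, at 73.1%, and PFKFB3 in ESC, at 53.6%. Within the sets the states did not differ in this lead: PFKFB3 led both in set 1, at 82.8% in ffEPSC and 60.9% in ESC, and PFKFB4 led both in set 3, at 78.5% in ffEPSC and 52.3% in ESC. PFKFB2, a gene of the same family outside the 32, was left out of this step. It had more counts than either in both states, at 30.7 CPM in ffEPSC and 19.1 CPM in ESC. SLC2A3 led glucose uptake in ffEPSC, at 62.1%, and SLC2A1 in ESC, at 51.7%, whereas SLC2A3 led both states within set 1. In single cells SLC2A1 led in 4 of 25 ffEPSC cells and in 8 of 16 ESC cells, and PFKFB3 in 10 of 22 ffEPSC cells and 7 of 15 ESC cells with reads of either gene. Both leads in ESC were narrow and turned to the other gene with the length of the longest transcript, at 47.8% for PFKFB3 and 49.7% for SLC2A1. In the other 7 steps the same gene led in both states, namely HK1, PFKP, ALDOC, ENO1, LDHA, SLC16A1 and PDK3. The lead of PFKP in ffEPSC depended on the length used. PFKL led there with plain counts and with the length of the principal transcript, at 44.8% against 42.4% for PFKP. The shares of ALDOC and LDHA are uncertain, given the exon overlaps of ALDOA and LDHB.

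HIF1A, the oxygen-regulated factor, differed little at the RNA level. It stood at 278 CPM in ffEPSC, with cells from 166 over 257 to 484 CPM, and at 272 CPM in ESC, with cells from 94.3 over 268 to 387 CPM. Its ratio was 0.03, and turned to -0.01 with TMM scaling and to -0.02 with median-of-ratios scaling. It was 0.34 within set 1 and -0.19 within set 3. HIF1A lies on chromosome 14, one of the raised chromosomes, and its ratio was -0.30 after subtracting the median of that chromosome. Oxygen acts mainly on the stability of the protein, which these data do not measure. Of 9 genes that control HIF1A or pair with it, 5 were measured, 1 was higher by 2-fold or more and 1 lower by as much. VHL, which targets HIF1A for breakdown, stood at 11.1 CPM in ffEPSC and 2.37 CPM in ESC (1.84). ARNT2, a partner of HIF1A, stood at 1.101 CPM in ffEPSC and 5.79 CPM in ESC (-1.69).

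Of 18 known HIF1A targets outside glycolysis 12 were measured, 7 with a ratio above 0 and 5 below. Of the 12, 5 were at least 2-fold higher in ffEPSC and 0 at least 2-fold lower, where 8.30% and 5.84% of all genes were, and the list's median was 0.43 beside 0.04 for all genes. P4HA2, a collagen prolyl hydroxylase, stood at 17.2 CPM in ffEPSC and 3.61 CPM in ESC (1.98), and BNIP3, a mitophagy receptor, at 235 CPM in ffEPSC and 91.6 CPM in ESC (1.35). DDIT4, an inhibitor of mTORC1, stood at 96.8 CPM in ffEPSC and 38.3 CPM in ESC (1.31), and TFRC, the transferrin receptor, at 315 CPM in ffEPSC and 136 CPM in ESC (1.203). Within set 3 the list's median was 0.10, and within set 1 it was 0.32. P4HA2 lies on chromosome 5, one of the raised chromosomes, and had 0.57 within set 1. BNIP3 had 0.47 within set 3, and over the 5 ffEPSC cells of little or no shift BNIP3 had 0.71 and TFRC 0.76. AK4, a mitochondrial adenylate kinase that was chosen after its values were seen, stood at 175 CPM in ffEPSC and 282 CPM in ESC (-0.69), with -1.47 within set 1 and -1.72 within set 3. Among the 31 glycolysis and pyruvate genes, many of them known HIF1A targets too, 2 were past 2-fold in each direction.

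Lists of neighbouring routes of sugar metabolism are read beside the same shares of all genes, 8.30% at least 2-fold higher and 5.84% lower. In the pentose phosphate route 7 of 9 genes were measured, 0 passed 2-fold in either direction and the median was -0.07. In the serine branch, which leaves glycolysis at phosphoglycerate, 5 of 5 were measured and 0 passed 2-fold, with a median of 0.19. Of 15 genes of glycogen and gluconeogenesis 12 were measured, 2 were at least 2-fold higher and 0 lower. They were PCK2, the mitochondrial carboxykinase, at 241 CPM in ffEPSC and 98.6 CPM in ESC (1.28), and PYGL, liver glycogen phosphorylase, at 118 CPM in ffEPSC and 50.04 CPM in ESC (1.22). Both lie on chromosome 14, and over the 5 ffEPSC cells of little or no shift their ratios were 0.79 and 0.92. Of 15 other sugar and lactate transporters 8 were measured, 0 were higher and 1 lower, SLC2A4, at 3.52 CPM in ffEPSC and 8.42 CPM in ESC (-1.06).

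Of 17 further genes related to these by family or by name, such as forms of liver and testis, 6 were measured. Among them 1 was at least 2-fold higher and 0 lower, where 8.30% and 5.84% of all genes were. That gene was LDHD, which oxidizes D-lactate in mitochondria. It stood at 18.9 CPM in ffEPSC, with reads in 23 of 25 cells and cells from 0 over 13.01 to 91.2 CPM. In ESC it stood at 2.01 CPM, with reads in 5 of 16 cells and at most 15.1 CPM. Its ratio was 2.72, with 2.83 within set 1 and 0.36 within set 3.

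Between the 4 ESC cells lowest in POU5F1 and the other 12, more of these genes passed 2-fold than between the states, as did more of all genes. Pools of 4 and 12 cells are smaller than those of the states, and the 4 were picked as extremes in POU5F1. The counts of the 2 comparisons are thus not alike in kind. The 4 cells lowest in POU5F1 had 10827 to 14551 CPM of the 32 genes in sum, against 17330 to 20360 CPM in the other 12 ESC cells, with no overlap. Of 30 genes at 5 CPM in either pool, 15 were at least 2-fold lower in the 4 cells, where 28.2% of all genes were, and 0 were at least 2-fold higher, where 10.3% were. The median ratio, 4 cells over the other 12, was -0.95, beside -0.27 over all genes. GPI, GAPDH, ENO1, ENO2 and PKM had all 4 cells below all 12 (5 of 30, where 5.21% of all genes were so arranged), and 0 had all 4 above, where 3.72% of all genes did. The 4 cells held fewer counts, 11714517 to 14683949 against 16349317 to 19965639, and a median of 11964 genes against 13318. The part of depth in these differences was not tested.

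In the 4 cells GPI had 49.8 to 234 CPM, against 287 to 510 CPM in the other 12, and its ratio was -1.77. PKM had 65.3 to 372 CPM in the 4 cells, against 421 to 821 CPM in the other 12, with a ratio of -1.30. ENO1 had 1396 to 2104 CPM in the 4 cells, against 3420 to 4130 CPM in the other 12, with a ratio of -1.14. The early genes SLC2A1 (-2.28), PFKL (-2.43) and PFKP (-2.07) were lower still, with some overlap of cells. Several genes of pyruvate fate were not lower. LDHA had 1482 to 2229 CPM in the 4 cells and 789 to 2062 CPM in the other 12 (0.38), PDHA1 had 261 to 325 CPM in the 4 cells and 206 to 372 CPM in the other 12 (-0.05), and PDHB had 367 to 605 CPM in the 4 cells and 230 to 404 CPM in the other 12 (0.54). TPI1 (0.06), LDHB (0.29), BPGM (0.67), PDK1 (0.21) and PFKFB4 (0.20) were not lower either, while SLC16A1 (-0.65) and PDK3 (-1.204) were. The genes thus did not shift as 1 block.

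**Figure D4:**
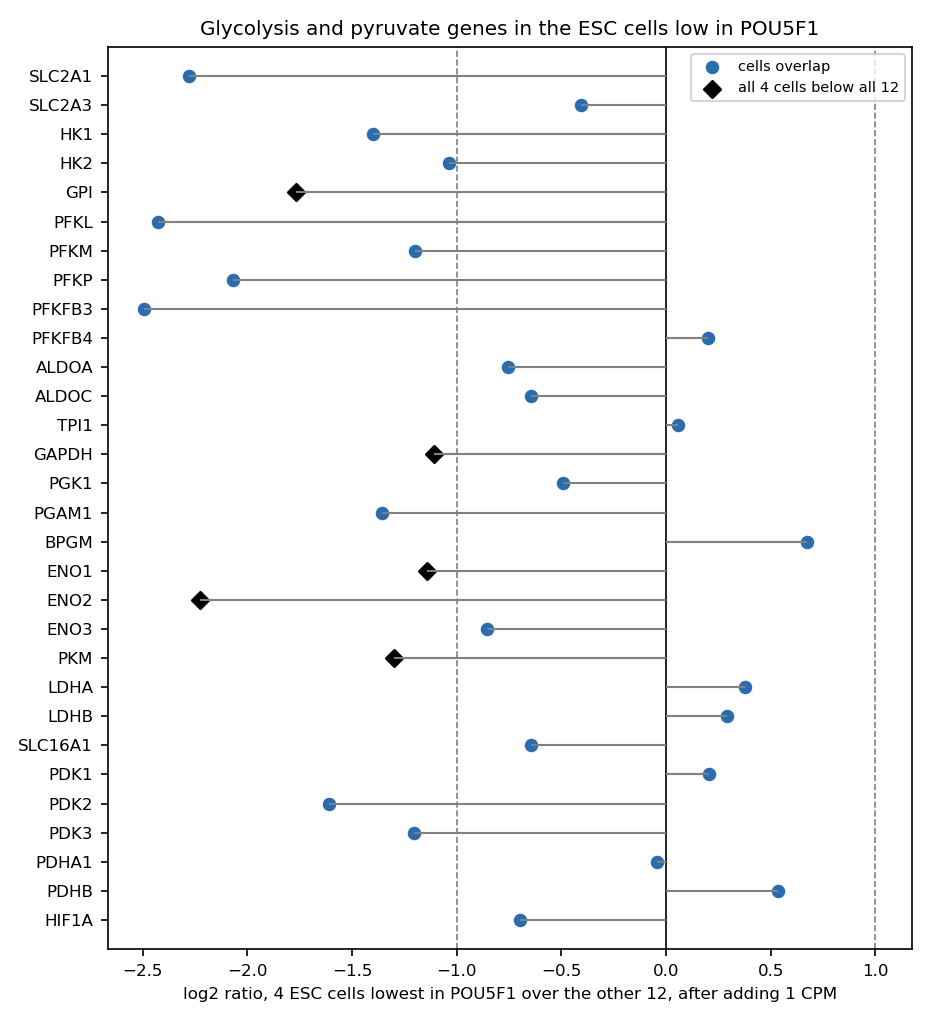
Log2 ratio of the 4 ESC cells lowest in POU5F1 over the other 12 ESC cells after adding 1 CPM, for the 30 genes at 5 CPM in either pool, in pathway order. Diamonds mark the 5 genes with all 4 cells below all 12, and dashed lines mark 2-fold. Ratios run from -2.49 for PFKFB3 to 0.67 for BPGM.

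For some pairs of genes the correlation across ESC cells was much smaller without these 4 cells. Across the 16 ESC cells GPI and PKM had a Pearson r of 0.883, and without the 4 cells it was 0.441. For ENO1 and GAPDH it was 0.964 with and -0.16 without them, and for GPI and SLC2A1 0.970 with and 0.750 without them. Across the 25 ffEPSC cells the same pairs had r of 0.555, 0.609 and 0.054. HIF1A and GPI had 0.867 across the 16 ESC cells, 0.268 without the 4 cells and 0.044 in ffEPSC. LDHA and GPI had -0.378, -0.153 and 0.211, and TPI1 and GPI -0.219, -0.151 and 0.186, in the same order. Genes read in the same cell share its depth and amplification, and these values are descriptions with no test.

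Inside the ffEPSC library PDHA1 and PKM followed the cells with little or no chromosome-wide shift, although neither gene lies on a raised chromosome. The 5 cells had 335 to 508 CPM of PDHA1, against 504 to 1201 CPM in the other 20. Pooled, these were 419 and 858 CPM, a ratio of -1.03. Over the 5 cells alone the ratio to ESC was 0.46 in place of 1.34. PKM, on chromosome 15, had 365 to 534 CPM in the 5 cells and 559 to 926 CPM in the other 20, with no overlap and a ratio of -0.75. PKM was the one gene of 29 measured with this arrangement, shown by 0.146% of all genes, and 0 of the 29 had all 5 cells above the other 20, shown by 0.0183%. Over the 5 cells the ratio of PKM to ESC was -0.33 in place of 0.29. The median ratio of X genes between the 5 and the 20 cells was 0.13.

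2 further ffEPSC cells had a mean shift below 0.3, at 0.136 and 0.235, but lay above 0.3 on chromosome 5. They were counted among the 20, with 738 and 764 CPM of PDHA1 and 926 and 925 CPM of PKM. PDHA1 and PKM in these 2 cells were thus unlike those in the 5, although their mean shifts were alike. The lack of overlap in PKM rests on counting these 2 cells among the 20, by the limit on chromosome 5. GAPDH leaned the other way, with 2928 to 3913 CPM in the 5 cells and 2146 to 3848 CPM in the other 20. The 5 cells came from sets 1, 3 and 4, and set and shift cannot be told apart in set 3.

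**Figure D5:**
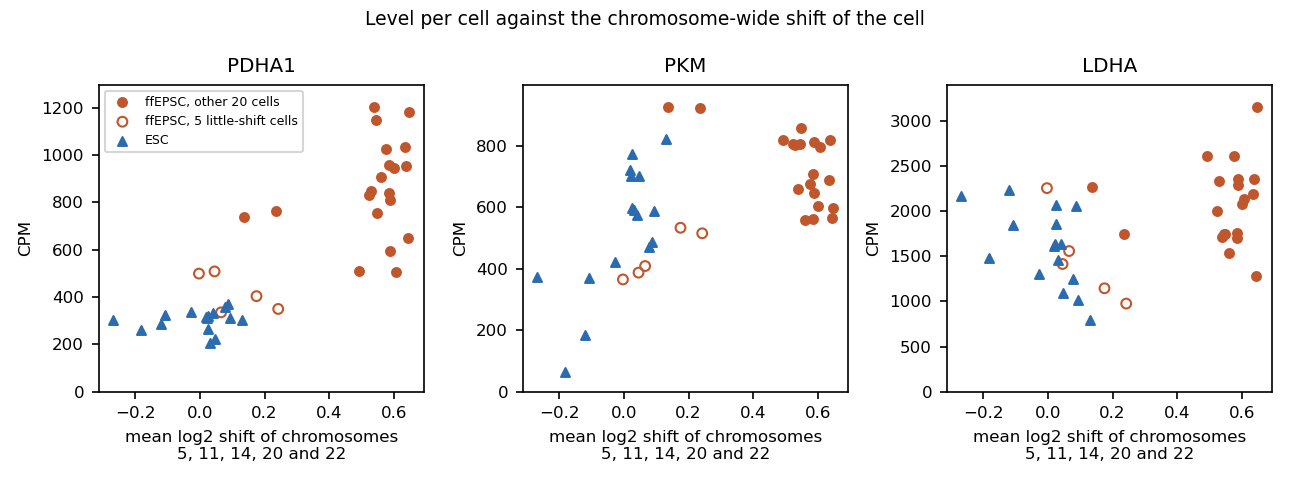
Level in CPM of PDHA1, PKM and LDHA in each cell against the mean log2 shift of chromosomes 5, 11, 14, 20 and 22 in that cell. Filled circles are the 20 other ffEPSC cells, open circles the 5 with little or no shift and triangles ESC cells. The open circles lie at 335 to 508 CPM for PDHA1 and 365 to 534 CPM for PKM, and 2 filled circles with a mean shift below 0.3 lie above them in both panels.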

How the data were processed

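Gene counts of 25 ffEPSC and 16 ESC cells were used as deposited by the authors, 1 table of whole-number counts per state without normalization. Per the labels' protocols, polyadenylated RNA was copied with Smart-seq2, after extraction with a kit that is meant for bulk material. Per the submitters' processing notes, bcl2fastq, HISAT2 2.2.1, SAMtools 1.6 and featureCounts of Subread 2.0.6 were used, with the builds GRCh38 and T2T-CHM13. No source used here gives the annotation, the use of strand or the handling of reads shared by genes. A median of 98.4% of non-zero gene counts per ffEPSC cell and 98.5% per ESC cell were even, so counting intervals are narrower than fragments would give. The repeat tables were not used. Between 9636 and 15511 genes were read per cell, 0 cells were removed, 0 cell names were shared between the tables, 0 pairs of cells had identical counts, and doublets were not called.

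Groups came from the cell type in the labels. Counts were summed per state and scaled to CPM, with exact Poisson intervals for levels and exact conditional binomial intervals for ratios. Ratios add 1 CPM, and genes count as measured from 5 CPM in at least 1 library. Shares within a step use the length of merged exons in GENCODE 29, matched to 21258 of 22474 genes and also the source of gene coordinates. Promoters are from RefSeq. The members, the lists, the 2 kinds of cells that stand apart and the alternatives were chosen with earlier results of these data known. All 32 genes are accounted for, those past 2-fold, the next 4 and those of shared steps with cell values, and at most 4 genes per further list. AK4 was named beyond that limit, after its values were seen. In the tables of all genes, alternatives were TMM (edgeR 4.0.16) and median-of-ratios (DESeq2 1.42.0) scaling, cells thinned to 11700000 counts, other floors and subsets of cells. The step that gives the pooled ratios was tested on simulated data, and the other steps were not. Python 3.11.15, pandas 2.3.3, SciPy 1.17.1 and R 4.3.3 were used.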

Additional observations from a re-analysis of the deposited data

How the results depend on the processing

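No paired analysis was possible because each state is 1 sample, so that the states share fewer than 2 replicate numbers. The set numbers in the names of cells have no stated meaning and served only for ratios within a set. The median ratio of the measured genes was -0.0529 with TMM scaling, -0.0650 with median-of-ratios scaling, 0.0388 from means and -0.0435 from medians of cells, 0.0501 with thinned counts, 0.00896 with no floor, -0.0482 in set 1, -0.177 in set 3, -0.0849 against the 12 ESC cells not low in POU5F1, -0.0722 with the 5 ffEPSC cells of little or no shift, and -0.0486 to 0.0522 when each cell was left out in turn. The scalings moved the median of all genes by -0.04 and -0.05. The number at least 2-fold higher in ffEPSC was 1 from medians of cells, 4 in set 1 and 0 in set 3. With the 5 ffEPSC cells it was 2, PDK1 and ENO2 in place of PDHA1 and PFKL. The number at least 2-fold lower was 4 in set 1, 5 in set 3, 4 without the 4 ESC cells and 1 with a floor of 20 CPM, which PFKFB3 does not reach. The steps with a different leading gene numbered 0 with the longest transcript, 1 with the APPRIS principal transcript (chosen after seeing the data), 1 with the mean of cell shares, 0 in set 1, 1 in set 3, and 1 to 2 when each cell was left out in turn. The 1 step was PFK with the principal transcript, PFKFB with the mean of cell shares and SLC2A in set 3. The cause was not tested. The direction of all 31 ratios held with 0.1 CPM added, of 30 under each scaling, 25 in set 1, 22 in set 3, 29 without the 4 ESC cells and 24 with the 5 ffEPSC cells. SLC16A3, PDK2 and PFKFB3 were low genes read in part of the cells. With thinned counts they still had reads in 5, 11 and 15 ffEPSC cells, as without thinning. The thinned ratio was -0.88 for PDK2 and -1.48 for PFKFB3.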

Other observations

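Some cells had almost no reads of 1 gene of the pathway, or of several, while others of its genes were read well. One ffEPSC cell of set 1 held 0.825 CPM of ALDOC, so that ALDOA made up 93.9% of its aldolase reads per kilobase, while it held 305 CPM of PFKL and 3152 CPM of GAPDH. An ffEPSC cell of set 3 held 0.861 CPM of HK1 and 0.492 CPM of HK2, and an ffEPSC cell of set 4 held 0.136 CPM of PDK1. An ffEPSC cell of set 2 held 0.467 CPM of ENO2, 0.311 CPM of BPGM and 0.156 CPM of PFKFB4. In ESC, a cell of set 1 among the 4 low in POU5F1 held 0 CPM of PFKL, 0 CPM of PFKP and 34.7 CPM of PFKM, the only cell in which PFKM made up 100% of the phosphofructokinase reads, and it held 121 CPM of ALDOC. The same ESC cell held 0 CPM of PFKFB3, PFKFB4 and PDK2, 0.170 CPM each of ENO2 and ENO3, and 0.340 CPM of TIGAR.

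The 3 ffEPSC cells highest in PGK1 had 2463, 2054 and 1894 CPM, against at most 1334 CPM in any ESC cell. The same 3 cells had 504, 592 and 508 CPM of PDHA1, the lowest levels among the 20 ffEPSC cells with a shift or above 0.3 on chromosome 5. Both genes lie on the X chromosome. This was noticed in the values and has no test.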
